A study of Mus musculus with 12 samples.

Results

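The genes described here handle iron in MLE-12 cells, a mouse cell line derived from alveolar type II (AT II) cells of the lung. They are 10 genes of the 34745 in the expression table, chosen by symbol: the uptake genes Tfrc, Slc11a2 and Steap3, the ferritin genes Fth1 and Ftl1, the ferritinophagy receptor Ncoa4, the exporter Slc40a1, the heme oxygenase Hmox1, and the regulators Aco1 and Ireb2. Ncoa4 was included because its values differed between libraries of this series, so its levels are given as a description and not tested. RNA was sequenced from 12 libraries in 4 groups of 3. In the LPS group, cells in 21% oxygen received 100 ng/mL lipopolysaccharide (LPS), and in LPS + M2-Exo they also received 10 µg/mL M2-Exo, exosomes collected from M2-polarised macrophages. In the Hyp group, cells were kept in 85% oxygen with no LPS, and in Hyp + M2-Exo they received the same dose of M2-Exo. The sample titles give 24 h. The 4 groups come from 1 cell line, there was no untreated group, and M2-Exo came from another cell type, a macrophage line. The comparisons ask what M2-Exo changed in each injury model and how the iron genes stood in hyperoxia against LPS. Oxygen, LPS and anything else that came with a model cannot be told apart in the last comparison. Nothing states that the replicates were separate cultures, so the p-values measure the spread between these libraries, which may be technical.

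Cells take up iron bound to transferrin through the transferrin receptor, reduce it in the endosome and move it to the cytosol. There it is used, exported by ferroportin, or stored in a shell of ferritin heavy and light chains. NCOA4 carries ferritin to the lysosome, where its iron is released, a process called ferritinophagy. When iron is scarce, the iron regulatory proteins encoded by Aco1 and Ireb2 bind hairpins in messenger RNAs, the iron-responsive elements (IREs). Binding in the 5′ UTR blocks translation, as for ferritin, whereas binding in the 3′ UTR of Tfrc protects the transcript from decay. Free iron feeds lipid peroxidation in ferroptosis, the form of cell death that the study addressed in injured AT II cells.

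Sequences that match the IRE hairpin are shown because the members' transcripts differ in where they hold one. A match is a description and no measure of binding. GENCODE M21 transcripts of GRCm38 were searched on the transcript strand for a C, then 5 bases, the 6-base loop CAGTGN and 5 bases that can pair with the first 5 (A-T, G-C or G-T). Capitals mark the loop, each site is printed with 6 further bases on each side, and the coordinates are those of the 17-base match. Fth1, Ftl1 and Slc40a1 held 1 site each in the 5′ UTR, at chr19:9982738-9982754 (+), chr7:45459785-45459801 (-) and chr1:45925471-45925487 (-). Tfrc held 4 sites in the 3′ UTR, at chr16:32631225-32631241, chr16:32631604-32631620, chr16:32631669-32631685 and chr16:32631716-32631732 (+). The site lay in 4 of 9 annotated transcripts of Fth1, 2 of 6 of Ftl1 and 1 of 8 of Slc40a1. Each Tfrc site lay in 1 of 7 transcripts. Transcripts with no coding part count among the annotated ones but were not searched.
Fth1 5′ UTR: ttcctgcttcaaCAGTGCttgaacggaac
Ftl1 5′ UTR: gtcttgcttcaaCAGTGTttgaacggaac
Slc40a1 5′ UTR: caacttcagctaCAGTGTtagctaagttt
Tfrc 3′ UTR, first site: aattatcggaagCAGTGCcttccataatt
Tfrc 3′ UTR, the second site: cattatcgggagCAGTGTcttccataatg
Tfrc 3′ UTR, the third site: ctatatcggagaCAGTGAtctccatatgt
Tfrc 3′ UTR, the fourth site: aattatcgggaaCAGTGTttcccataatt
Among all genes, 0.146% of those with a 5′ UTR (31 of 21200) and 0.659% of those with a 3′ UTR (144 of 21849) held a match there. The other members held no match to these letters in either UTR, which says nothing about elements of another form.

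Total counts per library ranged from 16021833 to 24074616 and were higher in the hyperoxia groups, from 20231632 upwards, than in the LPS groups, at most 19185116. No pair of libraries of a group agreed within sampling noise. Levels are given in CPM, counts brought to a common library size with TMM factors, which compare 1 gene across libraries and not 1 gene with another. The cells carried some AT II and epithelial markers, with Sftpc at 10.6 to 23.3 CPM and Abca3 at 136 to 204 CPM over all libraries. Nkx2-1 was at 35.2 to 185 CPM and Krt8 at 134 to 161 CPM. Sftpa1 and Sftpd were at or near 0 counts throughout. Krt18 (at most 0.253 CPM), Lamp3 (at most 1.07), Epcam (at most 1.18) and Slc34a2 (at most 1.33) were low in every library. Between Hyp and LPS without M2-Exo, 37.8% of all genes were called lower and 38% higher. Of 10 AT II and epithelial markers tested there, 8 were called lower and 2 higher in Hyp. The higher ones were Sftpb (log2 fold change 1.62, adjusted p = 4.94e-05) and Etv5 (0.50, adjusted p = 0.000253). The lower ones were Cdh1 (-2.25), Nkx2-1 (-2.13), Napsa (-2.03), Sftpc (-0.99), Slc34a2 (-0.94), Epcam (-0.83), Abca3 (-0.40) and Krt8 (-0.14). All 14 listed AT II and epithelial markers were found in the table, and added up to 579 to 620 CPM in each LPS-treated library and to 378 to 417 CPM in each hyperoxia library. Markers of macrophages were read in every library. All 15 listed were found in the table, and their summed level was 423 to 467 CPM in LPS, 328 to 379 CPM in LPS + M2-Exo, 99.5 to 107 CPM in Hyp and 78.6 to 118 CPM in Hyp + M2-Exo. In the LPS group Csf1r was at 101 to 111 CPM and Lyz2 at 91.9 to 111 CPM, whereas Siglecf was at or near 0 in each group. Of 12 macrophage markers tested in that comparison, beside the same shares of all genes, 9 were called lower and 2 higher in Hyp, Itgax (at most 0.162 CPM in LPS and 0.54 to 1.21 CPM in Hyp, adjusted p = 0.00206) and C1qb (log2 fold change 0.68, adjusted p = 0.0147). The summed level moves with several of the comparisons below, and its part in them was not tested. In bulk libraries, fewer cells of a type and less RNA per cell cannot be told apart.

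M2-Exo left the tested iron genes below the threshold in both models. In LPS, 25 of 13353 genes tested (0.187%) had an adjusted p under 0.05, and 0 of the 9 tested members did, in edgeR's quasi-likelihood test with Benjamini-Hochberg adjustment. At an unadjusted p under 0.05 there were 2 members, Fth1 and Tfrc, against 11.1% of all genes tested. DESeq2 called 1 member, Fth1, beside 133 of all genes, and limma on FPKM called 0 members, beside 18 of all genes. In hyperoxia, 14 of 13815 genes (0.101%) and 0 of 9 members were called, with 2 members, Ireb2 and Tfrc, at an unadjusted p under 0.05 against 8.48% of genes. DESeq2 and limma called 0 members in hyperoxia, beside 29 and 11 of all genes. Whether M2-Exo acted differently in LPS and in hyperoxia was tested as an interaction, which was called for 5 of 14187 genes (0.0352%) and for 0 of 9 members. Fth1 and Ireb2 had an unadjusted p under 0.05 there, against 9.78% of genes. For this interaction DESeq2 called 0 members, beside 48 of all genes higher and 30 lower. The counts for limma were 0 members, and 4 of all genes higher and 3 lower. All 3 libraries with M2-Exo lay on 1 side of those without it for 3 of 9 members in LPS and for 2 of 9 in hyperoxia, against 16.6% and 15.6% of all genes tested.

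**Figure D1:**
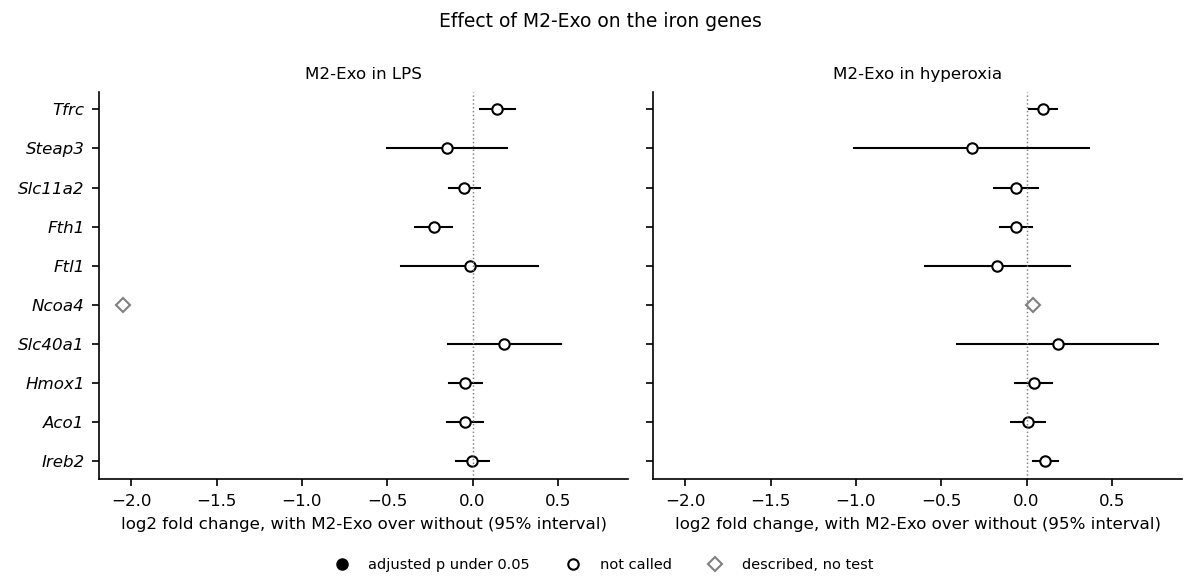
Log2 fold change of each iron gene with M2-Exo over without it, in LPS (left) and hyperoxia (right), with 95% intervals from edgeR for the tested genes. Each point is 1 gene fitted over 6 libraries, and all 9 tested genes are open, not called, in both panels. The grey diamond is Ncoa4, which was not tested: -2.05 in LPS and 0.04 in hyperoxia, drawn with no interval.

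Hyperoxia and LPS separated most of the tested iron genes. Without M2-Exo, 10465 of 13805 genes tested (75.8%) were called between Hyp and LPS, and 6 of the 9 tested members were. Hmox1 and Tfrc were higher in Hyp (38% of all genes were called higher), and Fth1, Slc40a1, Ireb2 and Slc11a2 were lower (37.8%). With M2-Exo in both groups, 10062 of 13660 genes (73.7%) and 5 members were called, the same without Slc11a2 (37.1% of genes higher and 36.5% lower). The libraries of the groups did not overlap for the called members, 6 of 9 and 5 of 9, against 78.8% and 76.8% of all genes. The members' shares were not above those of all genes. In size, 24.2% of all genes tested without M2-Exo changed at least 2-fold (a log2 fold change of 1), and of the tested members Hmox1 and Slc40a1 did. These comparisons use separate libraries.

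**Figure D2:**
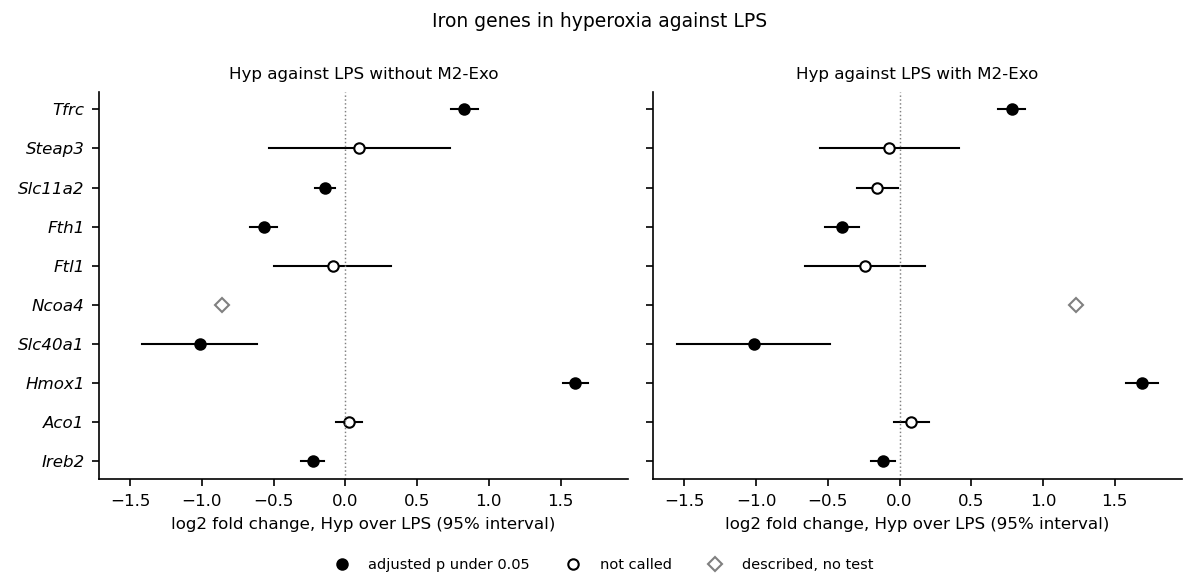
Log2 fold change of each iron gene, Hyp over LPS, without M2-Exo (left) and with M2-Exo in both groups (right), with 95% intervals from edgeR for the tested genes and Ncoa4 as a grey diamond with none. Filled points had an adjusted p under 0.05: 6 genes on the left and 5 on the right, with Hmox1 (1.60 and 1.69) and Tfrc (0.83 and 0.78) to the right of 0 in both.

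Ncoa4 (ENSMUSG00000056234, chromosome 14, 32159865 to 32179855, plus strand) encodes the receptor that hands ferritin to autophagy. Its counts were 691, 742 and 766 in LPS and 150, 154 and 171 in LPS + M2-Exo. In Hyp they were 199, 216 and 1187, and in Hyp + M2-Exo 239, 1105 and 172. The libraries fell into a low and a high set with nothing between them: 7 had a deposited FPKM of 1.22 to 1.47 and 5 had 5.33 to 7.34, a gap of 3.62-fold. All LPS libraries were in the high set and all LPS + M2-Exo libraries in the low set, while each hyperoxia group held 1 high library, replicate 3 of Hyp and replicate 2 of Hyp + M2-Exo. As mean ± SD of 3 libraries, LPS stood at 39.9 ± 1.86 CPM and LPS + M2-Exo at 9.51 ± 0.287 CPM, whereas the SD equalled or passed the mean in Hyp (21.9 ± 22.5 CPM) and Hyp + M2-Exo (22.5 ± 23.3 CPM). In log2 terms LPS + M2-Exo was -2.05 from LPS, and Hyp + M2-Exo 0.04 from Hyp. Without replicate 3 of Hyp the latter was 1.34, and without replicate 2 of Hyp + M2-Exo it was -1.27. Between the highest and the lowest library the level differed 5.79-fold within Hyp and 5.98-fold within Hyp + M2-Exo, the spread for which Ncoa4 was chosen. Against LPS, Hyp stood at -0.86 (log2) without M2-Exo and at 1.23 with it. Those values were -2.16 without replicate 3 of Hyp and -0.07 without replicate 2 of Hyp + M2-Exo.

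Ncoa4 shares sequence with Gm6768, annotated as a processed pseudogene on chromosome 12 (119260978 to 119262855 in GENCODE M21). Of the 50-base stretches of Gm6768, 94.5% also occur in Ncoa4 transcripts, where they make up 17.9% of such stretches. Gm6768 had more counts than Ncoa4 in each library, from 1420 to 2877. Its level was 88.2 to 91.8 CPM in LPS and 89.5 to 91.3 CPM in LPS + M2-Exo, which overlap, and 102 to 119 CPM in the hyperoxia libraries. It held no low and high set. How the authors counted reads that fit both places is not given in the sources used here, so the level of Ncoa4 is uncertain. Summed over both genes, the level was 126 to 132 CPM in LPS against 99.1 to 101 CPM in LPS + M2-Exo, and 110 to 164 CPM in Hyp against 120 to 156 CPM in Hyp + M2-Exo. No gene of the table overlaps Ncoa4. The nearest, Timm23, lies 307 bases away, and its level was 29.3 to 35.1 CPM in the LPS groups and 59.6 to 66.9 CPM in the hyperoxia groups, with no split inside a group.

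**Figure D3:**
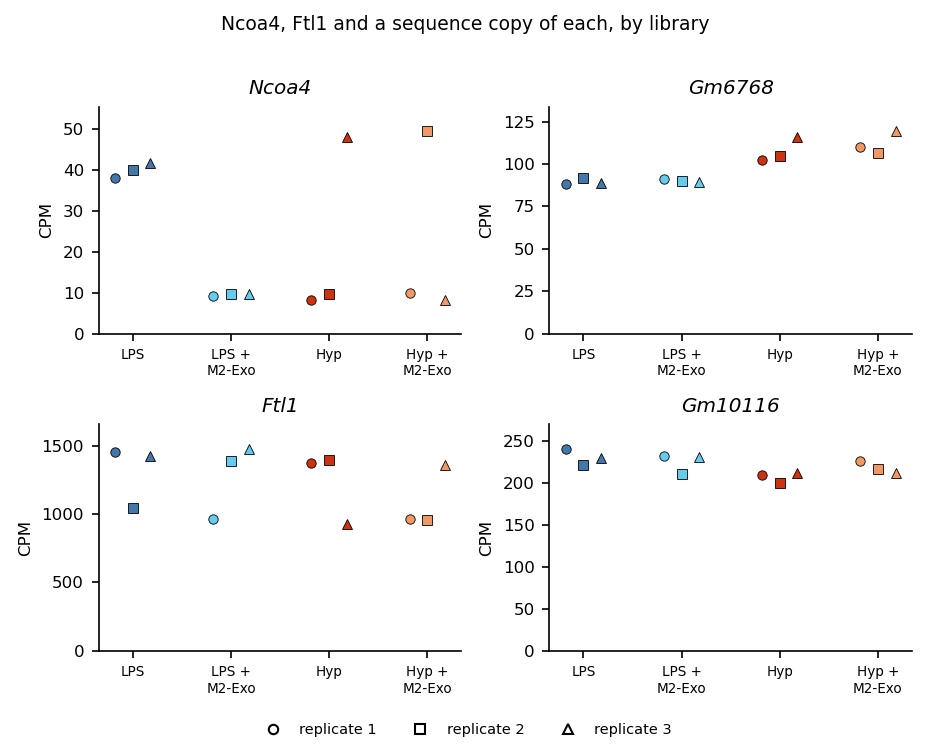
Level in CPM (linear axes from 0) of Ncoa4, Ftl1 and a sequence copy of each, Gm6768 and Gm10116, in the 12 libraries, with 1 point per library, its shape giving the replicate number. Ncoa4 sits at 8.25 to 9.96 CPM or at 37.9 to 49.4 CPM and Ftl1 at 928 to 1042 CPM or at 1357 to 1480 CPM, while neither copy shows such a split.

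The genes with profiles most like that of Ncoa4 followed it only in part. Profiles of log2 CPM centred on each gene's mean were compared over 12 libraries for 10725 genes, and likeness was the root mean square difference (0 for the same profile, and 1.10 for a flat one). Tpbg (0.759), Fam122b (0.848), Gm6710 (0.857), Pigb (0.925) and Vma21 (0.926) were nearest. The mirror image of Ncoa4 was nearest to 4930453N24Rik (0.852), Cptp (0.872), Zfp180 (0.88), Usp27x (0.923) and Zfp639 (0.934). Tpbg was high in the same hyperoxia libraries as Ncoa4, with 27.9 CPM in replicate 3 of Hyp and 27.0 CPM in replicate 2 of Hyp + M2-Exo against at most 13.8 CPM in the other hyperoxia libraries, but it was 14.9 CPM in replicate 1 of LPS. Cptp was low in replicate 3 of Hyp, at 12.4 CPM, and not in replicate 2 of Hyp + M2-Exo, at 29.0 CPM. On log2(FPKM + 1), 5 of these 10 genes were named again. The points share libraries and depth, so these likenesses are a description.

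Ferritin stores iron in a shell of heavy chains, which oxidise it, and light chains. Ftl1 (ENSMUSG00000050708, chromosome 7, 45457944 to 45459884, minus strand), the light chain, was counted 26488, 19323 and 26180 times in LPS and 15713, 21888 and 26388 times in LPS + M2-Exo. In Hyp the counts were 33092, 31549 and 23013, and in Hyp + M2-Exo 23065, 21428 and 28283. Less sharply than Ncoa4 it lay in a low and a high set: 5 libraries had a deposited FPKM of 334 to 358 and 7 had 483 to 507. The gap was 1.35-fold, against 3.62-fold for Ncoa4. For both genes the border was put at the largest gap between sorted libraries, and how many other genes have such a gap was not counted. Each group held libraries of both Ftl1 sets, so the groups overlapped in every comparison. The sets were not those of Ncoa4: replicate 3 of Hyp and replicate 2 of Hyp + M2-Exo were low in Ftl1, as were LPS replicate 2, LPS + M2-Exo replicate 1 and Hyp + M2-Exo replicate 1. Of 10726 genes with a mean of at least 5 CPM, 5.62% spread at least as far as Ftl1 within LPS and 3.59% within LPS + M2-Exo. The shares were 3.31% within Hyp and 6.39% within Hyp + M2-Exo. In all groups at once 51 genes (0.475%) did, a joint condition set by the values of Ftl1 itself. The log2 fold change with M2-Exo was -0.02 in LPS (95% interval -0.42 to 0.39, adjusted p = 0.989) and -0.17 in hyperoxia (-0.60 to 0.25, adjusted p = 0.787). With 1 library left out, the latter ran from -0.36 (without Hyp + M2-Exo replicate 3) to -0.07 (without Hyp replicate 2). Hyp stood at -0.09 from LPS (-0.50 to 0.32, adjusted p = 0.664), or at 0.09 without replicate 3 of Hyp. With M2-Exo it was at -0.24 (-0.66 to 0.18, adjusted p = 0.261), and without LPS + M2-Exo replicate 1 that difference was -0.41 with an adjusted p of 0.0426. Ftl1 shares 50-base stretches with 15 genes, of which 2 are in the table. Of these, Gm10116 (Ftl1-ps1 in GENCODE M21, chromosome 13), holds 47.3% of the stretches of Ftl1 and was at 201 to 242 CPM in all libraries with no split.

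Fth1 (ENSMUSG00000024661, chromosome 19, 9982703 to 9985092, plus strand), the heavy chain with the 5′ UTR hairpin shown above, was highest in LPS. It was at 1804, 1829 and 1726 CPM in LPS and at 1570, 1520 and 1433 CPM in LPS + M2-Exo. In Hyp it was at 1248, 1219 and 1155 CPM, and in Hyp + M2-Exo at 1190, 1148 and 1123 CPM. Each LPS + M2-Exo library was below each LPS library, and each hyperoxia library was below every LPS library of the same M2-Exo state, whereas Hyp and Hyp + M2-Exo overlapped. The log2 fold change with M2-Exo was -0.23 ± 0.05 (SE) in LPS, with an unadjusted p of 0.00137 and an adjusted p of 0.172 in edgeR. Over the alternatives the adjusted p ranged from 0.00209 (DESeq2) to 0.458. In hyperoxia it was -0.06 (95% interval -0.16 to 0.03, adjusted p = 0.664). The difference between the models, 0.17, had an adjusted p of 0.437. Against LPS, Fth1 fell by 0.57 in Hyp (a level of 0.674 times, adjusted p = 5.36e-06) and by 0.40 with M2-Exo in both groups (0.757 times, adjusted p = 0.000147), on the log2 scale. The summed macrophage markers were ordered the same way, LPS, LPS + M2-Exo, then the hyperoxia groups, and their part in the result was not tested.

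Of the uptake genes, Tfrc was called higher in hyperoxia. Tfrc (ENSMUSG00000022797, chromosome 16, 32608920 to 32632794, plus strand) encodes the transferrin receptor and carries the 3′ UTR hairpins shown above. It was at 381, 351 and 372 CPM in LPS and at 386, 397 and 425 CPM in LPS + M2-Exo. In Hyp it was at 640, 647 and 678 CPM, and in Hyp + M2-Exo at 683, 704 and 710 CPM. In both models each library with M2-Exo was above each one without it, and all hyperoxia libraries were above all LPS libraries. M2-Exo gave a log2 fold change of 0.15 ± 0.04 (SE) in LPS (unadjusted p = 0.0102, adjusted p = 0.3) and of 0.10 ± 0.04 (SE) in hyperoxia (unadjusted p = 0.0278, adjusted p = 0.573), both short of the threshold. The effect did not differ detectably between the models (-0.04, interval -0.17 to 0.08, adjusted p = 0.839). Hyp against LPS rose by 0.83 ± 0.04 (SE), 1.77-fold, with an adjusted p of 6.37e-07, and with M2-Exo by 0.78 ± 0.04 (SE), 1.72-fold, with an adjusted p of 9.98e-07. At least as large a change was seen in 31.2% and 33.5% of all genes tested.

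Slc11a2 (ENSMUSG00000023030, chromosome 15, 100387898 to 100425072, minus strand), the divalent metal transporter DMT1 that moves iron out of the endosome, differed little. It ranged from 111 to 112 CPM in LPS, 101 to 110 CPM in LPS + M2-Exo, 100 to 102 CPM in Hyp and 89.4 to 104 CPM in Hyp + M2-Exo. The LPS libraries were above all others, and the other groups overlapped. With M2-Exo the log2 fold change was -0.05 in LPS (interval -0.14 to 0.04, adjusted p = 0.717) and -0.06 in hyperoxia (-0.19 to 0.07, adjusted p = 0.749). Hyp was lower than LPS by -0.14 ± 0.03 (SE, adjusted p = 0.00335), and with M2-Exo by -0.15 ± 0.06 (SE, adjusted p = 0.0528). The call without M2-Exo was lost with library size alone as the scaling (-0.05, adjusted p = 0.156) and in limma on FPKM (-0.05, adjusted p = 0.186). Library size alone also moved the median of all genes, from 0.01 to 0.10. With M2-Exo a call was reached with all 12 libraries in 1 fit (adjusted p = 0.0158) and without Hyp + M2-Exo replicate 1 (-0.21, adjusted p = 0.013). It was also reached with the replicate number as a block, as given below. Its transcripts share 50-base stretches with 260 genes. Of these, 240 are in the table, with 3282224 counts over all libraries against 25186 for Slc11a2. Those are totals of whole genes and not reads from the shared stretches. How much of the Slc11a2 sequence is shared was not measured. The level of Slc11a2 is uncertain where reads from the shared stretches were counted. Gm5475, which overlaps it, had at most 4 counts in a library.

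Steap3 (ENSMUSG00000026389, chromosome 1, 120190757 to 120272705, minus strand), a ferrireductase of the endosome, was low. Its counts were 58, 48 and 54 in LPS, 41, 40 and 48 in LPS + M2-Exo, 45, 89 and 88 in Hyp and 70, 60 and 38 in Hyp + M2-Exo. The groups overlapped in each comparison once scaled for depth, and Hyp spread most, from 1.87 to 3.93 CPM. No difference was detectable at this depth: -0.15 in LPS (interval -0.50 to 0.20, adjusted p = 0.796), -0.32 in hyperoxia (-1.01 to 0.37, adjusted p = 0.759, and from -0.59 without Hyp replicate 1 to -0.13 without Hyp replicate 2), 0.10 for Hyp over LPS (-0.53 to 0.73, adjusted p = 0.758) and -0.07 with M2-Exo (-0.55 to 0.41, adjusted p = 0.777), all on the log2 scale.

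**Figure D4:**
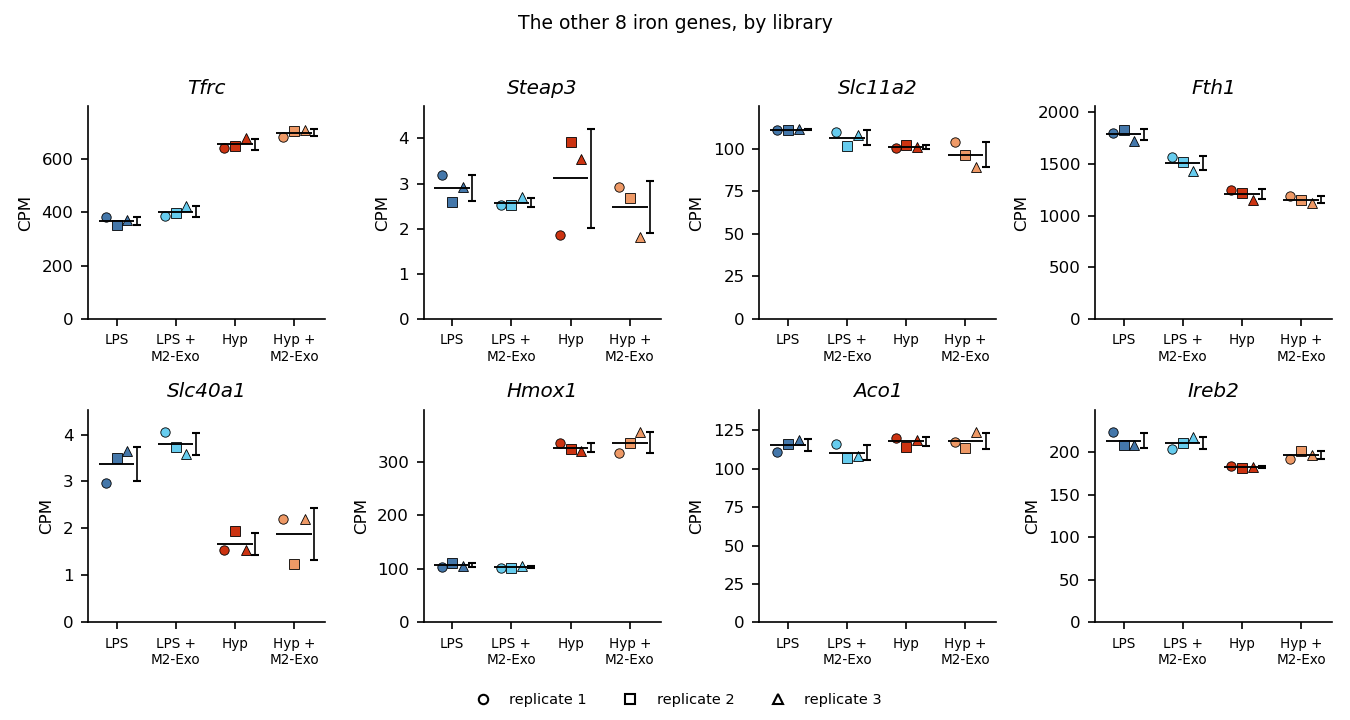
Level in CPM (linear axes from 0) of the 8 members other than Ncoa4 and Ftl1 in the 12 libraries, with 1 point per library, its shape giving the replicate number, a line at the group mean and a bar of 1 SD. Tfrc and Hmox1 are above, and Fth1 and Slc40a1 below, the LPS groups in every hyperoxia library of the same M2-Exo state. Steap3 and Slc40a1 stay under 5 CPM.

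Iron leaves the cell through ferroportin, encoded by Slc40a1 (ENSMUSG00000025993, chromosome 1, 45908068 to 45926523, minus strand). It was read rarely, with 54, 65 and 67 counts in LPS, 66, 59 and 64 in LPS + M2-Exo, 37, 44 and 38 in Hyp and 53, 28 and 46 in Hyp + M2-Exo. Scaled, the LPS groups lay at 2.96 to 4.05 CPM and the hyperoxia groups at 1.25 to 2.21 CPM, with no overlap. It was 0.494 times as high in Hyp as in LPS (log2 fold change -1.02 ± 0.17, SE, adjusted p = 0.00082), and likewise with M2-Exo (-1.02 ± 0.23, SE, adjusted p = 0.00405). M2-Exo gave 0.19 in LPS (interval -0.14 to 0.52, adjusted p = 0.693) and 0.18 in hyperoxia (-0.41 to 0.77, adjusted p = 0.844). With 1 library left out, these ran from 0.10 to 0.24 in LPS and from 0.05 to 0.41 in hyperoxia. Macrophages are known to express this gene, and their summed markers were lower in the hyperoxia groups too. The part of those markers in the result was not tested.

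Hmox1 (ENSMUSG00000005413, chromosome 8, 75093591 to 75100596, plus strand), which releases iron from heme and is induced by oxidative stress, showed the largest change among the tested members between the models. The LPS libraries were at 104, 112 and 106 CPM and the LPS + M2-Exo libraries at 101, 102 and 106 CPM. In Hyp it was at 335, 324 and 321 CPM, and in Hyp + M2-Exo at 316, 336 and 355 CPM. Every hyperoxia library was above every LPS library, and within each model the libraries with and without M2-Exo overlapped. Hyp was 3.04-fold above LPS (1.60 ± 0.04 on the log2 scale, SE, adjusted p = 2.77e-08), and 3.23-fold with M2-Exo (1.69 ± 0.05, SE, adjusted p = 8.88e-08). Of all genes tested, 11.7% and 10% changed at least as much. With M2-Exo the log2 fold change was -0.04 in LPS (interval -0.14 to 0.05, adjusted p = 0.774) and 0.04 in hyperoxia (-0.07 to 0.15, adjusted p = 0.802). The summed macrophage markers were lower in the hyperoxia groups, and their part in this result was not tested.

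The regulators differed little between groups. Ireb2 (ENSMUSG00000032293, chromosome 9, 54863755 to 54912534, plus strand) encodes IRP2, the iron regulatory protein that is degraded when iron is plentiful. It was at 223, 208 and 209 CPM in LPS, at 204, 211 and 217 CPM in LPS + M2-Exo, at 183, 182 and 183 CPM in Hyp and at 192, 201 and 196 CPM in Hyp + M2-Exo. The libraries of Hyp were lowest, below those of Hyp + M2-Exo and of both LPS groups. Hyp was below LPS by -0.23 ± 0.04 (log2, SE, adjusted p = 0.000501), and with M2-Exo by -0.11 ± 0.04 (SE, adjusted p = 0.0227). That second call was lost with library size alone (-0.02, adjusted p = 0.602), which moved the median of all genes from 0.01 to 0.10. It was also lost in limma (adjusted p = 0.66), in DESeq2 (adjusted p = 0.0656) and with no filter on low counts (adjusted p = 0.0881). Leaving out any 1 of 4 libraries lost it as well (LPS + M2-Exo replicate 2 or 3, Hyp + M2-Exo replicate 1 or 3). With each library left out in turn, the log2 fold change ran from -0.14 to -0.09. M2-Exo gave 0.11 ± 0.03 (SE) in hyperoxia, with an unadjusted p of 0.00895 and an adjusted p of 0.544, and -0.0012 in LPS (interval -0.10 to 0.09, adjusted p = 0.996). The difference between the models was 0.12 (adjusted p = 0.495). Ireb2 shares 50-base stretches with 2 genes, whose counts sum to 7.59% of its own.

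Aco1 (ENSMUSG00000028405, chromosome 4, 40143081 to 40198338, plus strand) encodes IRP1, which is a cytosolic aconitase while it holds an iron-sulfur cluster. It ranged from 111 to 119 CPM in LPS, 107 to 116 CPM in LPS + M2-Exo, 114 to 120 CPM in Hyp and 114 to 124 CPM in Hyp + M2-Exo, and the groups overlapped throughout. None of its comparisons was called: -0.04 with M2-Exo in LPS (interval -0.15 to 0.06, adjusted p = 0.789), 0.01 in hyperoxia (-0.09 to 0.11, adjusted p = 0.961), 0.03 for Hyp over LPS (-0.06 to 0.12, adjusted p = 0.556) and 0.08 with M2-Exo (-0.04 to 0.20, adjusted p = 0.182). With library size alone as the scaling, Hyp was above LPS at 0.12 (adjusted p = 0.0186) and, with M2-Exo, at 0.17 (adjusted p = 0.0162), and limma on FPKM called both as well (adjusted p = 0.0312 and 0.0255). Scaling by library size alone also moved the median of all genes from 0.01 to 0.10 in both comparisons.

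Between genes, levels were compared per length. On the deposited FPKM, the order in LPS was Fth1 (1998 ± 75.8 FPKM, SD, n = 3), Ftl1 (447 ± 77.8), Hmox1 (37.5 ± 1.44), Tfrc (37.0 ± 1.55), Ireb2 (35.6 ± 1.63), Aco1 (22.5 ± 0.593), Slc11a2 (14.9 ± 0.0922), Ncoa4 (5.57 ± 0.218), Slc40a1 (0.303 ± 0.0304) and Steap3 (0.275 ± 0.0287). Hmox1, Tfrc and Ireb2 overlapped as neighbours there, as did Slc40a1 and Steap3. In Hyp, Hmox1 (121 ± 2.63 FPKM, SD, n = 3) and Tfrc (69.8 ± 2.35 FPKM) were separate from each other and from Ireb2 (32.3 ± 0.147 FPKM). The FPKM follow from the counts with 1 length per gene, and that length is 866 bases for Fth1 and 2826 bases for Ftl1, more than the 1941 bases that the locus of Ftl1 spans. The union of GENCODE exons is 3469 bases for Fth1 and 1340 bases for Ftl1. For Fth1 that is more than the 2390 bases that its deposited locus spans. The deposited locus starts at 9982703 and the GENCODE gene at 9980598. With these unions as the length, Ftl1 ranked above Fth1 in every group, so the order of the ferritin chains depends on the length used. Aco1 and Ireb2 exchanged places as well, and Steap3 came above Slc40a1 in LPS and in LPS + M2-Exo (overlapping in the latter).

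Beyond the members, 79 other iron genes in 5 lists by function were found in the table. With M2-Exo, 0 were called by edgeR in LPS (of 73 tested, 16 at an unadjusted p under 0.05), in hyperoxia (of 71, 5 unadjusted) and for the difference between the models (of 74, 7 unadjusted), beside 11.1%, 8.48% and 9.78% of all genes. DESeq2 called 5, 0 and 1 of them, beside 133, 29 and 78 of all genes. Their median log2 fold changes were -0.02, -0.01 and 0.02, beside 0.00 for all genes tested in each comparison. Between Hyp and LPS, 51 of 73 were called without M2-Exo, 23 higher and 28 lower, beside 75.8% of all genes. With M2-Exo, 54 of 74 were called, 25 higher and 29 lower, beside 73.7%. The medians were -0.03 in both, beside 0.01 for all genes. With library size alone as the scaling both medians were 0.06, beside 0.10 for all genes.

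By list, genes were called in both directions, as were all genes tested (38% higher and 37.8% lower without M2-Exo, 37.1% and 36.5% with it), and no list was tested against them. Of the genes for heme synthesis and transport, 2 rose and 8 fell of 16 tested without M2-Exo, and 1 rose and 9 fell of 16 with it. Among iron chaperones and other ferritinophagy genes, 6 rose and 3 fell of 11, and 6 rose and 1 fell of 11. The mitochondrial and iron-sulfur genes were mixed, with 8 up and 5 down of 21, and 10 up and 6 down of 21. Of other uptake genes and carriers 4 rose and 6 fell of 13 in both comparisons, and of other genes of regulation and export 3 rose and 6 fell of 12, and 4 rose and 7 fell of 13.

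The named genes of these lists, by smallest p, were led by an increase of Hspa9, a mitochondrial chaperone used in iron-sulfur cluster assembly, from 423 to 437 CPM in LPS to 1162 to 1217 CPM in Hyp (log2 fold change 1.46 ± 0.03, SE, adjusted p = 2.53e-08). Lcn2, Cp, Nfe2l2, Hp and Slc48a1 were lower in Hyp. Lcn2, which binds bacterial siderophores, fell from 131 to 147 CPM to 12.3 to 14.4 CPM (-3.36 ± 0.08, SE, adjusted p = 2.74e-08), and Cp, the ferroxidase ceruloplasmin, from 313 to 341 CPM to 58.0 to 65.7 CPM (-2.41 ± 0.06, SE, adjusted p = 2.77e-08). Hp, haptoglobin, fell from 37.7 ± 3.25 CPM (SD, n = 3) to 1.09 ± 0.332 CPM (SD, n = 3) (-5.09 ± 0.16, SE, adjusted p = 8.86e-08). Nfe2l2, which encodes the antioxidant regulator NRF2, was at 548 to 584 CPM in LPS and 221 to 235 CPM in Hyp (-1.32 ± 0.04, SE, adjusted p = 5.57e-08). Slc48a1, a heme transporter, was lower as well (-1.30 ± 0.04, SE, adjusted p = 1.07e-07). With M2-Exo the 6 genes of smallest p were Cp (-2.29), Hspa9 (1.45), Hp (-4.82), Slc48a1 (-1.29), Lrp2 (1.08) and Nfe2l2 (-1.46). Lrp2, the endocytic receptor megalin, rose from 282 to 313 CPM in LPS + M2-Exo to 619 to 667 CPM in Hyp + M2-Exo (adjusted p = 4.01e-07).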

How the data were processed

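The authors sequenced poly(A) RNA, filtered reads with Seqtk and mapped them with HISAT2 2.0.4. The submitters' processing notes also name StringTie 1.3.0, edgeR and GRCm38. The program that counted reads, its strand setting and the annotation are not given in the sources used here. The deposited table holds raw counts per gene and FPKM by the authors. The FPKM follow from the counts and 1 length per gene. Counts were tested in R 4.3.3 with edgeR 4.0.16 (filterByExpr, TMM, quasi-likelihood F test, Benjamini-Hochberg over all genes tested, called at 0.05) on the 6 libraries of each comparison, or on all 12 for the difference between the models. All tests are two-sided. The fit was tried on simulated counts that gave all genes the same spread between replicates. That trial says nothing about genes with a wide spread of their own, such as Ftl1 and Steap3. Alternatives were RLE factors or library size alone, 2 other filters on low counts, DESeq2 1.42.0, limma 3.58.1 on log2(FPKM + 1) with a mean FPKM of at least 1, all 12 libraries in 1 fit, the replicate number as a block, and each library left out in turn. Sequences, exon lengths and shared 50-base stretches came from GENCODE M21.

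The members, lists, tests and naming rule were chosen with earlier results of these data known. Named were all members, the called genes of the 5 lists of other iron genes (the 6 of smallest p where more than 6 were called), the 5 genes most like Ncoa4 and the 5 most like its mirror image (among genes with a mean of at least 5 CPM, logged after adding a prior count of 2), and genes that overlap a member. Gm6768, Gm10116 and Timm23 were named after their values were seen. Numeric columns left unused numbered 0.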

Additional observations from a re-analysis of the deposited data

How the results depend on the processing

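Counts of genes called with M2-Exo moved with the tool, the libraries fitted and single libraries. With DESeq2, 133 genes were called for M2-Exo in LPS (25 as reported), among them 1 member and 5 other iron genes, 29 in hyperoxia (14 as reported), and 78 for the difference between the models (5 as reported), among them 1 other iron gene. Fitting all 12 libraries at once gave 12 genes in LPS and 2 in hyperoxia, and no filter on low counts gave 13 for the difference. Leaving out 1 library gave 21 to 39 genes in LPS (39 without LPS replicate 1), 12 to 21 in hyperoxia and 4 to 34 for the difference (34 without Hyp + M2-Exo replicate 1). It gave 0 to 1 other iron genes in LPS (1 without LPS + M2-Exo replicate 2). The causes were not tested.

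Replicate numbers did not pair the samples: libraries of the same number had correlations of -0.02 to 0.05 over 12 pairs, and 10 of 24 correlated best with their own number. With the replicate number as a block, 6 genes were called in LPS, 8 in hyperoxia and 3 for the difference, and Slc11a2 was called between Hyp + M2-Exo and LPS + M2-Exo (adjusted p = 0.0386).

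Log2 fold changes of the members that turned sign were near 0 or rested on single libraries. With 1 library left out, those with M2-Exo in LPS were -0.16 to 0.15 for Ftl1 and -0.023 to 0.034 for Ireb2. In hyperoxia they were -1.27 to 1.345 for Ncoa4, -0.0031 to 0.085 for Hmox1 and -0.027 to 0.034 for Aco1. For the difference between the models they were -0.43 to 0.030 for Steap3, -0.071 to 0.042 for Slc11a2 and -0.14 to 0.23 for Slc40a1 (-0.00024 with library size alone and -0.0033 with the block). For Hyp over LPS they were -0.093 to 0.37 for Steap3, -0.23 to 0.086 for Ftl1 and -0.0043 to 0.053 for Aco1, and with M2-Exo -0.20 to 0.11 for Steap3 and -0.069 to 1.63 for Ncoa4. With library size alone, Ftl1 was at 0.0016 for Hyp over LPS, and Steap3 at 0.020 with M2-Exo, while the median of all genes moved from 0.0091 to 0.0987 and from 0.0083 to 0.0991, so both remained below it.

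Of 908 alternatives for single genes, 852 kept direction and side of the threshold, 33 turned sign, 10 lost a call, 9 gained one and 4, all of Ncoa4, moved by more than the spread between replicates. Hmox1, Tfrc, Fth1 and Slc40a1 kept their calls between Hyp and LPS in every alternative that gave a value, and limma's filter on FPKM left out Steap3 and Slc40a1. Steap3 and Slc40a1 had 28 to 89 counts per library, the lowest of the members.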
